A study of Mus musculus with 2 samples.

Results

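The mouse family of miR-103 and miR-107 is encoded by 3 genes, Mir107, Mir103-2 and Mir103-1, each inside a gene of the pantothenate kinase (Pank) family. These 3 genes were taken by their Ensembl identifiers from the 2202 miRNA genes of the deposited count tables. No measured value entered the rule, though earlier results of these data were known when it was set. The data are 2 short-RNA libraries of 1 group, biological replicates 2 and 1 of hippocampus from female B6CASTF1/J mice, 25 days old. B6CASTF1/J is the first-generation hybrid of the C57BL/6J and CAST/EiJ strains. The labels name the tissue only as a layer of the hippocampus, state a size range below 30, and give both samples the same donor entry, so the spread between them may be partly technical. There is no second condition, and a difference below is one between these 2 libraries.

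Pantothenate kinases catalyse the first step of coenzyme A synthesis, and an intronic miRNA is cut from the transcript of its host gene. The main products, miR-103-3p and miR-107-3p, are expressed in most tissues, the brain among them. In mice they are known to lower insulin sensitivity, with caveolin-1 as a target, and in human cells they repress Dicer, the enzyme that cuts miRNA hairpins into mature miRNAs. In human brain, miR-107 is known for its link with Alzheimer's disease and the protease BACE1.

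The mature sequences are shown because they decide which reads can be assigned to a single gene. They are RefSeq sequences on GRCm38.p6, the assembly also called mm10, written 5′ to 3′ with the seed, bases 2 to 8, in capitals.
miR-107-3p (Mir107): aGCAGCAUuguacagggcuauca
miR-103-3p (Mir103-2 and Mir103-1): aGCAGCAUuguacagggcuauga
miR-107-5p (Mir107): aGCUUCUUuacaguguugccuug
miR-103-2-5p (Mir103-2): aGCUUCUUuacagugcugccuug
miR-103-1-5p (Mir103-1): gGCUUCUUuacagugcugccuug
The 3p products share a seed, and no other of the 1679 mouse mature miRNA names in the RefSeq table carries it. They differ at 1 of 23 bases, G22C from miR-103-3p to miR-107-3p, with positions counted from 1 at the 5′ end. The 5p products of Mir103-1 and Mir103-2 differ by G1A, and those of Mir103-2 and Mir107 by C16U.

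The whole hairpins, shown because their loops and stems differ more than the mature arms do, are in lower case throughout.
Mir107: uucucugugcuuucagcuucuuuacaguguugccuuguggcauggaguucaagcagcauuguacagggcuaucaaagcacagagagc
Mir103-2: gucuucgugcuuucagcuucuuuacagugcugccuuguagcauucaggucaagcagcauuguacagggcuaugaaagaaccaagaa
Mir103-1: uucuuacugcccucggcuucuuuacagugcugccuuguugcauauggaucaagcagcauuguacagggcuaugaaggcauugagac
Over their global alignments, the hairpins of Mir107 and Mir103-2 were identical at 83.9% of positions, those of Mir107 and Mir103-1 at 80.5%, and those of Mir103-2 and Mir103-1 at 80.2%. The longest identical run was 24 bases between Mir107 and either Mir103 hairpin and 27 bases between the Mir103 hairpins. In each hairpin the 5p product occupies bases 15 to 37 and the 3p product bases 52 to 74. The minimum free energy computed with RNAfold was -41.2 kcal/mol for Mir107, -31.8 for Mir103-2 and -35.8 for Mir103-1.

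All 3 genes lie in intron 5 of a Pank transcript with 7 exons, on the strand of the host and outside every annotated exon of it. Mir107 (ENSMUSG00000065594.1) lies on chromosome 19 from 34820687 to 34820773 on the minus strand, in the 7282-base intron of Pank1. Mir103-2 (ENSMUSG00000065563.1) lies on chromosome 2 from 131288052 to 131288137 on the plus strand, in a 5801-base intron of Pank2. Mir103-1 (ENSMUSG00000065553.1) lies on chromosome 11 from 35782396 to 35782481 on the plus strand, in a 1740-base intron of Pank3. The hairpins start 326, 454 and 688 bases after the upstream exon in Pank1, Pank2 and Pank3. GENCODE M21 places no gene other than the host over any of them. Host transcripts are longer than the sequenced size range and were not measured here.

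A read with more than 1 matching place is left out of every gene count, so the sequence shared between loci bears on every value below. The full miR-103-3p sequence occurs exactly in 2 of the 2202 annotated hairpins, Mir103-1 and Mir103-2. A read that starts at its first base has to be 25 bases long before it is found in 1 hairpin alone. The full miR-107-3p sequence occurs in Mir107 alone, yet its first 21 bases are in all 3 hairpins, so a read from its first base has to reach 22 bases. The 5p products each occur in 1 hairpin, and 16 bases from the first base are enough for Mir107 and Mir103-2, and 10 or fewer for Mir103-1. The counts of Mir103-1 and Mir103-2 thus leave out reads of the exact miR-103-3p and are no measure of miR-103-3p in the hippocampus. The count of Mir107 leaves out reads of miR-107-3p that end before base 22. Only exact matches among annotated hairpins were searched, the rest of the genome was not, and the counts do not separate the arms.

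**Figure D1:**
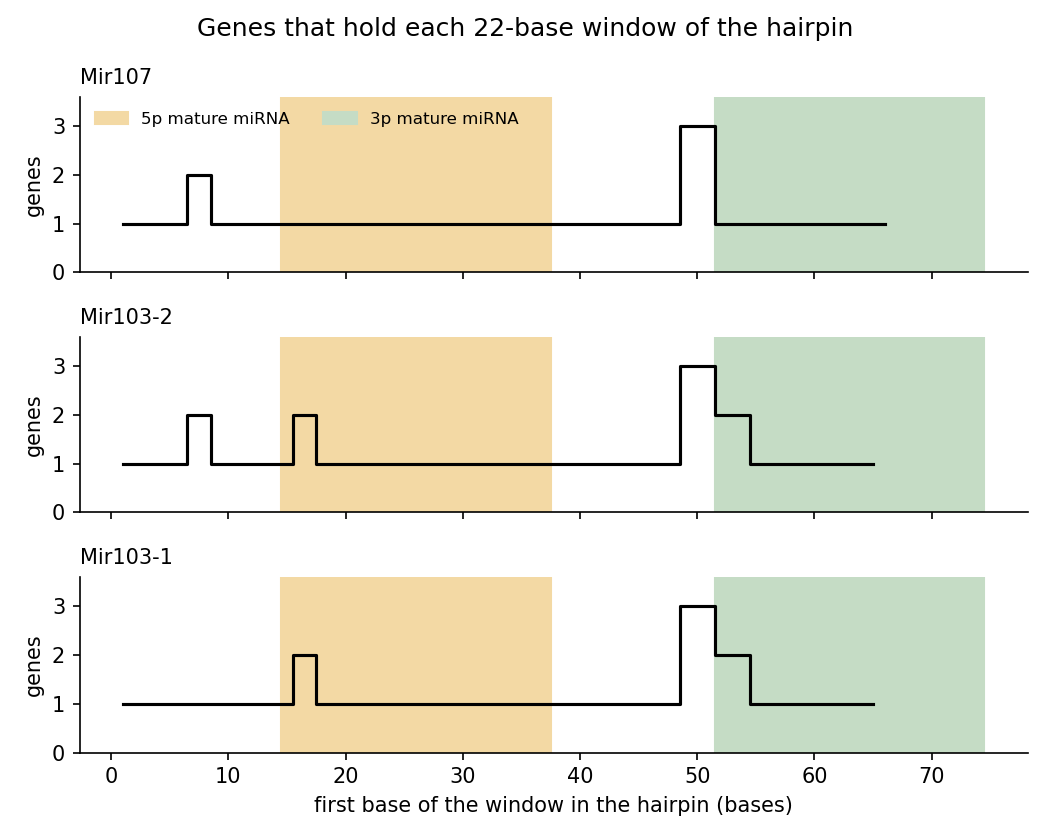
Number of the 2202 annotated miRNA genes (vertical axis) whose hairpin holds the 22-base window that starts at each base (horizontal axis), for Mir107, Mir103-2 and Mir103-1, with the 5p and 3p mature products shaded. Of 66 windows of Mir107, 61 occur in 1 gene, against 55 of 65 for Mir103-2 and 57 of 65 for Mir103-1, and in both Mir103 genes the windows at the start of the 3p product occur in 2 genes.

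The replicate 2 library held 4266963 counts at miRNA genes and the replicate 1 library 5481053, which were 31.2% and 35.4% of all reads in the tables. The share of reads with several places was 46.4% in replicate 2 against 41.9% in replicate 1. Of 16 neuronal marker genes 13 were detected (at least 2 CPM, counts per 1000000 gene counts, in each library), with summed shares of 8.31% (replicate 2) and 6.003% (replicate 1) of all gene counts.

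On counts of reads with a single place, Mir107 was the highest of the family. It had 12573 counts in replicate 2 and 8920 in replicate 1. On the scale of CPM over all gene rows, its level was 2947 in replicate 2 (95% Poisson interval 2895 to 2999) and 1627 in replicate 1 (1594 to 1662), a mean of 2287 ± 933 CPM (SD, n = 2). It was the gene with rank 65 by level in replicate 2 and rank 81 in replicate 1, and the upper quartile of mean level over the 433 detected genes was 1148 CPM. Mir107 thus lay above that quartile in both libraries.

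Mir103-2 had 195 counts in replicate 2 and 113 in replicate 1. Its level was 45.7 CPM in replicate 2 (39.5 to 52.6) and 20.6 CPM in replicate 1 (16.99 to 24.8), a mean of 33.2 ± 17.7 CPM (SD, n = 2). Both levels were below the median mean level of the detected genes, 118 CPM, but well above the 0.703 and 0.547 CPM that a count of 0 allows in replicates 2 and 1, at 3 counts.

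By these counts Mir103-1 was the lowest of the family. It had 40 counts in replicate 2 and 21 in replicate 1, or 9.37 CPM (6.70 to 12.8) and 3.83 CPM (2.37 to 5.86), a mean of 6.603 ± 3.92 CPM (SD, n = 2). These levels were below the lower quartile of the mean level of detected genes, 11.9 CPM. All 3 genes passed the detection threshold, and the replicate 2 value was the higher one for each. Intervals cover counting error only and no biological spread. They may be too narrow even for counting error, since PCR copies of 1 molecule are not independent.

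**Figure D2:**
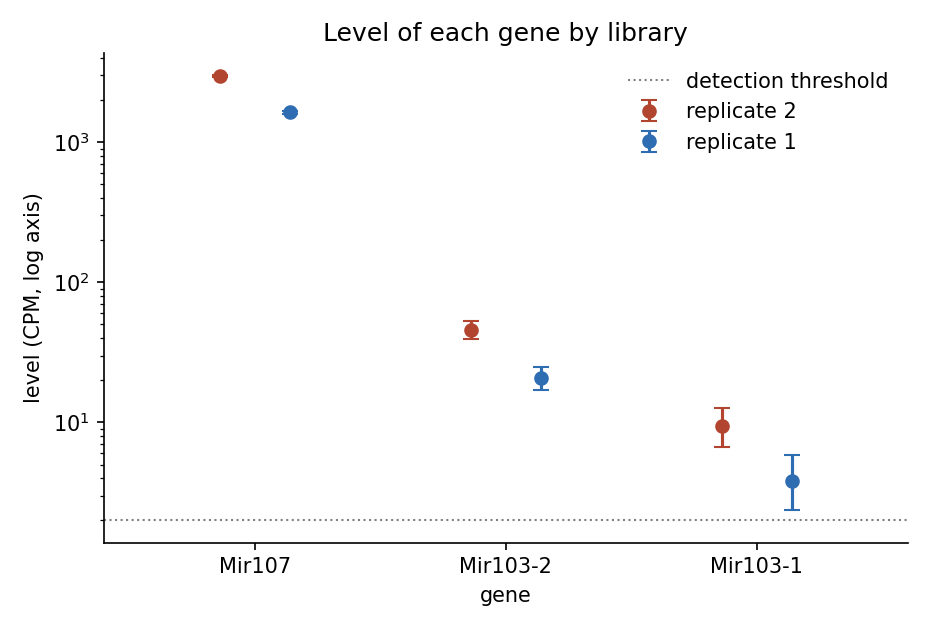
Level in CPM (log axis) of Mir107, Mir103-2 and Mir103-1 in the replicate 2 and replicate 1 libraries, with points for the values, bars for exact 95% Poisson intervals of the counts and a dotted line at 2 CPM. The genes fall in the order Mir107, Mir103-2, Mir103-1 in both libraries, and no interval of one gene reaches that of another.

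The order of the 3 genes was the same in both libraries and held between them, since the lowest value of Mir103-2, 20.6 CPM in replicate 1, exceeded the highest of Mir103-1, 9.37 CPM in replicate 2. The hairpins are 87, 86 and 86 bases long, so scaling by length kept the order, at mean levels of 2629, 38.6 and 7.68 CPM per 100 hairpin bases for Mir107, Mir103-2 and Mir103-1. No source names the columns of the tables, and their strand was read from their totals. In the column so read as the opposite strand none of the 3 genes had a count in either library, and the column read as without strand equalled the main one for them.

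Mir107 held nearly all counts assigned to the family. Its share was 98.2% of 12808 family counts in replicate 2 (95% Clopper-Pearson interval 97.9 to 98.4) and 98.5% of 9054 in replicate 1 (98.2 to 98.8), or 98.3% ± 0.25 (SD, n = 2). Mir103-2 held 1.52% in replicate 2 (1.32 to 1.75) and 1.25% in replicate 1 (1.03 to 1.499). Mir103-1 held 0.312% in replicate 2 (0.223 to 0.425) and 0.232% in replicate 1 (0.144 to 0.354). These are shares of reads with a single place and not of the mature miRNAs, because the 3p product of both Mir103 genes is left out.

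The Mir103 genes can be set against each other more directly, as reads of the exact miR-103-3p are left out for both. Reads from its first base that reach 25 bases can be assigned to 1 of them. The part of such reads in these counts was not tested. The ratio of Mir103-1 to Mir103-2 counts was 0.205 in replicate 2 (exact 95% interval 0.142 to 0.289) and 0.186 in replicate 1 (0.111 to 0.298). The count of Mir103-1 was thus lower in each library by more than counting error. Between the libraries this ratio did not differ detectably (p = 0.773 in Fisher's exact test, two-sided). The ratio of Mir107 to Mir103-2 counts was 64.5 in replicate 2 (55.97 to 74.7) and 78.9 in replicate 1 (65.6 to 95.9). That of Mir107 to Mir103-1 was 314 in replicate 2 (231 to 440) and 425 in replicate 1 (278 to 687). Over 4 such comparisons between libraries, the share of Mir107 and the 3 ratios, the lowest p in Fisher's exact test was 0.0485 for the share of Mir107, and its adjusted p over the 4 was 0.183.

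All 3 genes were higher in replicate 2 than in replicate 1 by more than counting error. The fold in CPM was 1.81 for Mir107 (exact 95% interval 1.76 to 1.86), 2.22 for Mir103-2 (1.75 to 2.82) and 2.45 for Mir103-1 (1.41 to 4.37). In a two-sided exact binomial test over 579 genes with at least 10 counts in sum, the Benjamini-Hochberg adjusted p was 1.61e-11 for Mir103-2 and 0.00122 for Mir103-1, and for Mir107 it was below what the computation can represent (3.12e-138 with TMM scaling). The test compares 2 libraries and not conditions. Calls were frequent, as 68.9% of the tested genes passed at an adjusted p of 0.05 and 42% passed as higher in replicate 2, so calls of this kind, here 3 of 3 members, were common in the table.

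The log2 ratio of CPM + 1, replicate 2 over replicate 1, was 0.86 for Mir107, 1.11 for Mir103-2 and 1.10 for Mir103-1, against a median of 0.24 and an upper quartile of 1.05 over the 579 tested genes. By fold, Mir107, Mir103-2 and Mir103-1 stood at percentiles 65.1, 72.9 and 77.2 of the tested genes. The folds of the members did not differ from each other by more than counting error. The fold of Mir107 over that of Mir103-2 was 0.817 (95% interval 0.641 to 1.04), that of Mir107 over Mir103-1 was 0.740 (0.414 to 1.29), and that of Mir103-1 over Mir103-2 was 1.10 (0.601 to 2.07).

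**Figure D3:**
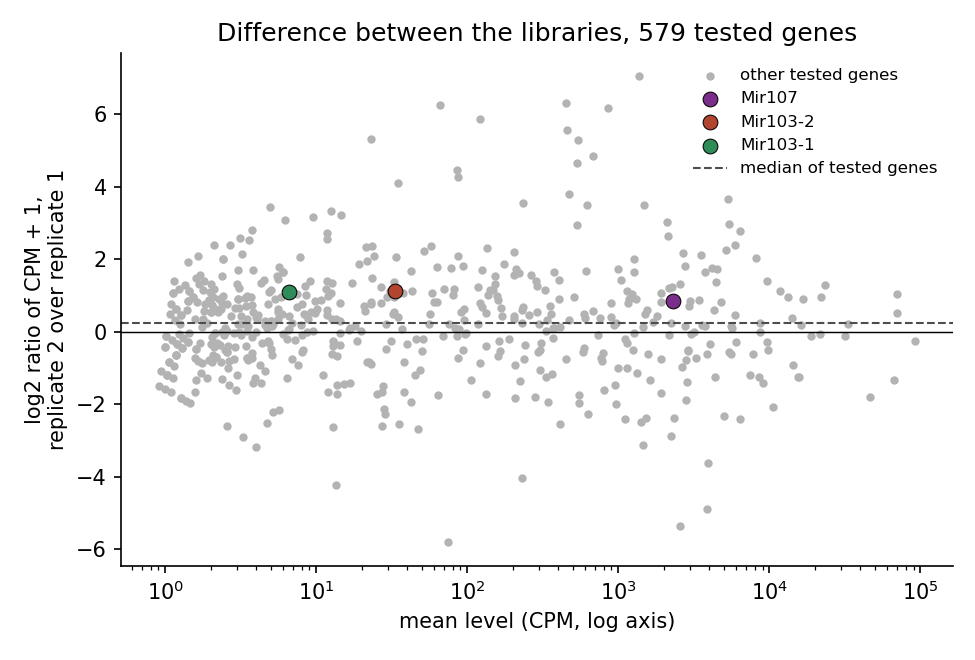
Log2 ratio of CPM + 1, replicate 2 over replicate 1 (vertical axis), against mean CPM (log axis) for 579 tested genes, with 1 point per gene, the 3 family genes in colour and a dashed line at the median of 0.24. The family genes lie between 0.86 and 1.11 at mean levels from 6.603 to 2287 CPM.

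The size of the difference depended on how the libraries were scaled, while its direction did not. With edgeR's TMM scaling the folds were 1.41 for Mir107 (1.37 to 1.45), 1.73 for Mir103-2 (1.36 to 2.20) and 1.91 for Mir103-1 (1.10 to 3.41). With DESeq2 size factors they were 1.38, 1.69 and 1.87. TMM moved all log2 ratios by -0.36 and DESeq2 size factors by -0.39. The adjusted p of the exact binomial test for Mir103-1 was 0.0236 with TMM and 0.0322 with DESeq2 size factors, so this gene passed in each case with 61 counts in all. Over all tested genes, library totals gave 243 calls higher (42%) and 156 lower (26.9%) in replicate 2. TMM gave 184 higher (31.8%) and 206 lower (35.6%), and DESeq2 size factors 177 higher (30.6%) and 213 lower (36.8%).

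**Figure D4:**
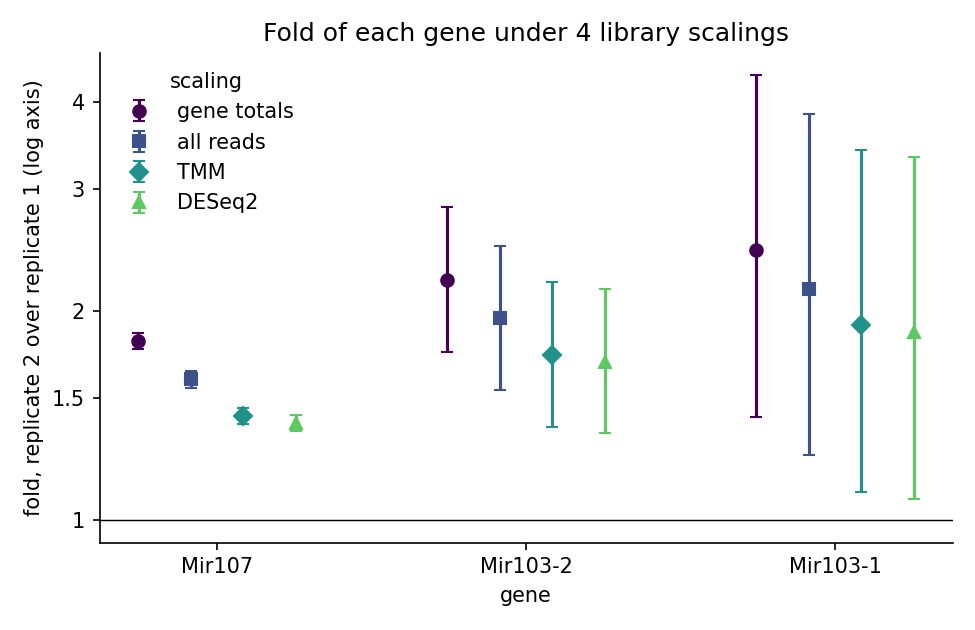
Fold of Mir107, Mir103-2 and Mir103-1, replicate 2 over replicate 1 (log axis), under 4 scalings of the libraries: gene totals, all reads in the tables, TMM and DESeq2 size factors. Points are folds and bars exact 95% intervals, and every interval lies above 1.

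Other families with copied loci show how far the gap between Mir107 and its copies is shared. Both copies of a miRNA and a relative were compared in 6 other families, taken from the lists except for miR-7. The miR-7 family was added after the data were seen, since its copies stand in the annotation under the symbols Mir7-1 and Mir7-2. The level of Mir107 was 53.5 times the summed level of Mir103-1 and Mir103-2 in replicate 2 and 66.6 times in replicate 1. The gap was wider for Mir26b over the Mir26a copies, at 356 times in replicate 2 and 109 times in replicate 1. For Mir29a over the Mir29b copies it was 8.35 times in replicate 2 and 52.7 times in replicate 1. For Mir125a over the Mir125b copies it was 2.81 times in replicate 2 and 10.7 times in replicate 1, and for Mir181c over the Mir181a copies 3.36 and 3.45 times in replicates 2 and 1. For Mir7b over Mir7-1 and Mir7-2 it was 2.21 times in replicate 2 and 9.28 times in replicate 1. For the listed relative of the miR-30 family the order was the other way. Mir30b was at 0.423 and 0.338 times the Mir30c copies in replicates 2 and 1, but its number of loci was not determined. Mir30a and Mir30e, whose mature sequences occur at 1 locus each, were not in the lists. Mir30a was at 3589 and 4524 CPM and Mir30e at 5159 and 3426 CPM in replicates 2 and 1. Both lay above the Mir30c copies, at 514 and 258 CPM, so the order depended on the relative taken. Mir29c, also unlisted, was at 120 and 704 CPM against 29.8 and 141 CPM for the Mir29b copies. The mature 3p product of Mir107 shares its first 21 bases with that of the copies, whereas the first mismatch comes after 10 bases between miR-26b-5p and miR-26a-5p, and after 13 between miR-125a-5p and miR-125b-5p. These ratios are descriptions of reads with a single place.

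**Figure D5:**
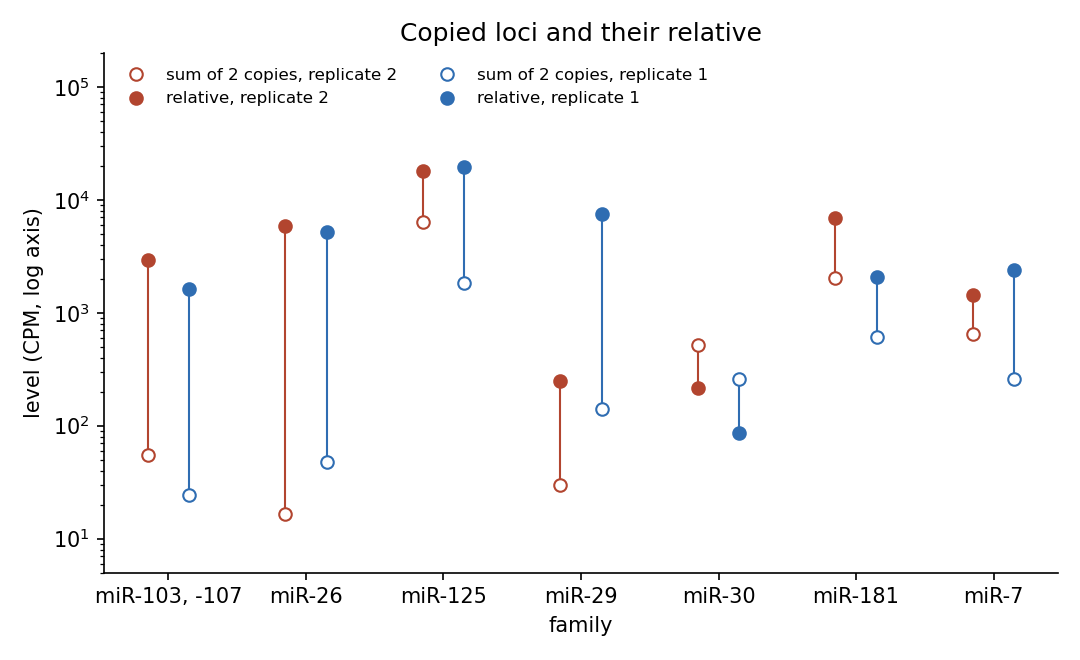
Level in CPM (log axis) of the summed copies (open circles) and of the relative (filled circles) in 7 families, in replicate 2 and replicate 1. For miR-103 and miR-107 the copies sum to 55.1 and 24.4 CPM against 2947 and 1627 CPM for Mir107 in replicates 2 and 1. In the miR-30 family the copies stand above Mir30b, the relative shown.

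Of 28 genes in the list of miRNAs with copied loci, 24 were detected, and 12 of 26 tested were called higher and 11 lower in replicate 2, with a median log2 ratio of 0.44. The list's 4 symbols for miR-7 and miR-92 copies matched no annotated symbol and are not counted. These genes are annotated as Mir7-1, Mir7-2, Mir92-1 and Mir92-2. All but Mir92-2, which was not called, were called higher. Over all 579 tested genes 42% were called higher and 26.9% lower, with a median of 0.24. Mir128-1 and Mir128-2, neuronal miRNA genes, were at folds of 1.88 and 2.59 in replicate 2 over replicate 1, while Mir138-1 and Mir138-2, known from synapses, were at 0.418 and 0.306. Among 61 genes with 1 mature arm found at more than 1 locus, Mir103-2 and Mir103-1 held ranks 30 and 38 by mean level.

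Most of the miR-15/16 group carries a related seed, since its bases 2 to 8 equal bases 1 to 7 of miR-103-3p and miR-107-3p. Of the 9 genes listed 8 have that seed and Mir503 does not. Mir6342, Mir6353 and Mir6419 carry it too, are not in the list and had no count in either library. Members of the group are known to restrain the cell cycle. The offset is visible in these RefSeq sequences, with bases 2 to 8 in capitals.
miR-107-3p: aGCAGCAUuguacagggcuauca
miR-15a-5p: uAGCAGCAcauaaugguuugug
miR-16-5p: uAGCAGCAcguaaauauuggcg
miR-195a-5p: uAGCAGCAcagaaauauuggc
miR-322-5p: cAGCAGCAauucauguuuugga
Of the 8 genes with the seed 7 were detected and tested, and 5 were called higher and 1 lower in replicate 2, or 4 higher and 3 lower with TMM. Their median log2 ratio was 0.42, against 0.24 over all tested genes. With Mir503, which was also called higher, the median was 0.82. Among all tested genes, 42% were called higher and 26.9% lower in replicate 2, or 31.8% and 35.6% with TMM. Mir15a was at 3006 CPM in replicate 2 and 1299 CPM in replicate 1, a fold of 2.31, and Mir322 at 3656 CPM in replicate 2 and 587 CPM in replicate 1, a fold of 6.23. Mir497 was at 2067 CPM in replicate 2 and 1542 CPM in replicate 1. Mir195a went against them, at 590 CPM in replicate 2 and 7277 CPM in replicate 1, a fold of 0.0811. Mir107, Mir103-2 and Mir103-1 spanned folds of 1.81 to 2.45, a narrower range than this group. The ranges are not alike, since a range widens with the number of genes and this group holds more. The upper end, Mir103-1, rests on 40 and 21 counts in replicates 2 and 1.

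The 3 other genes nearest to each member were taken by distance of log2(CPM + 1) over the 2 libraries among 429 genes with at least 10 counts in each. For Mir107 they were Mir760, Mir15a and Mir92-1, at distances of 0.28, 0.33 and 0.35. For Mir103-2 they were Mir9-1, Mir33 and Mir486, at 0.05, 0.10 and 0.12. Mir33 was at 43.6 CPM in replicate 2 and 19.5 CPM in replicate 1, close to the 45.7 and 20.6 CPM of Mir103-2. For Mir103-1 they were Gm23394, Mir344g and Mir3474, at 0.22, 0.24 and 0.35. A match over 2 libraries rests on 2 values.

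Several marker lists of other cell types moved between the libraries in which the family differed. For comparison, 42% of all tested genes were called higher and 26.9% lower in replicate 2, or 31.8% and 35.6% with TMM. All 7 epithelial genes were called higher in replicate 2, and their summed share was 0.627% in replicate 2 against 0.0111% in replicate 1, and so were all 3 sensory genes of the Mir183 cluster, with 0.184% and 0.00283%. Of 4 oligodendrocyte genes 3 were tested, and 2 were called lower and 1 higher, and the summed share was 0.0939% in replicate 2 against 0.650% in replicate 1. All 3 tested endothelial and mural genes were called lower, with 1.29% in replicate 2 and 2.20% in replicate 1, and Mir126b of that list was at 0 in both. The neuronal list had 7 genes called higher and 6 lower of 15 tested. Of 5 microglial and immune genes 3 were called higher and 2 lower, and of 3 erythroid genes 1 higher and 2 lower. Of 6 tested genes of choroid plexus and ciliated cells 3 were called higher, or 1 with TMM, and none lower. The part of these lists, and of the share of reads with several places, in the family's difference was not tested. In bulk tissue, fewer cells of a type and less RNA per cell cannot be told apart.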

How the data were processed

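Short RNAs were sequenced from 2 libraries of 1 group. The deposited tables hold whole-number read counts per gene in 3 columns after 4 rows that name no gene. No source names the columns, which were read from their totals as the count without strand, the main strand and the opposite strand. Per the deposited text with each table, the assembly is mm10 and the annotation GENCODE M21. Aligner, trimming and counting parameters were not given in the sources used here. The strand column with most gene counts was used. CPM were computed here over all gene rows. CAST/EiJ reads that differ from mm10 may be placed less often.

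Rows that name no gene (unmapped 17.2% and 17.1%, several places 46.4% and 41.9%, outside miRNA genes 5.17% and 5.56% in replicates 2 and 1) stayed out of totals and tests. Depth was 4266963 counts in replicate 2 and 5481053 in replicate 1. Libraries were compared gene by gene with a two-sided exact binomial test (scipy 1.17.1), Benjamini-Hochberg adjusted over all genes with at least 10 counts in sum. The test was also run on counts simulated with counting error only. Such counts cannot show how it behaves under the wider spread between these libraries. Fisher's exact test compared ratios of members. TMM factors came from edgeR 4.0.16, size factors (poscounts) from DESeq2 1.42.0, alignments from Biopython 1.88 and folding energies from RNAfold 2.7.2. Alternatives were other columns, denominators, scalings, count filters, pseudocounts, members and single libraries.

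Genes named are the 3 members, the 3 nearest to each in level, and up to 4 detected genes of highest mean CPM per list. From the list of copied loci, genes were named after their values were seen, as copies beside a relative or as pairs. The members and lists were chosen with earlier results of these data known.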

Additional observations from a re-analysis of the deposited data

How the results depend on the processing

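Apart from leaving out a library, 39 alternative values were computed for 9 results, and 31 kept their direction and side of the threshold, a value within 1 SD, or a count within 1.5 times. None reversed. With all reads in the tables as denominator the mean levels were 748 for Mir107, 10.8 for Mir103-2 and 2.14 for Mir103-1 per 1000000 reads, by construction. The opposite-strand column gave 0 for each of the 3 genes. Without Mir103-1 the share of Mir107 in the family counts was 98.6%, and without Mir103-2 it was 99.7%, again by construction. Leaving out 1 of 2 libraries gives the other's value and is no check of stability: the level ran from 1627 to 2947 CPM for Mir107, from 20.6 to 45.7 CPM for Mir103-2 and from 3.83 to 9.37 CPM for Mir103-1. The share of Mir107 ran from 98.2% to 98.5%, and the log2 ratio of Mir103-1 over Mir103-2 from -2.37 to -2.26. The number of genes called, 399, lay between 332 and 411 under the alternatives. No paired analysis was possible because there is 1 group. Depth limits Mir103-1 most, with 40 and 21 counts in replicates 2 and 1.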

Other observations

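MicroRNAs known from lipid, sterol or insulin metabolism, a field in which miR-103 and miR-107 were studied in mice, were called lower in replicate 2 more often than higher. Of 8 such genes, 7 were tested, and 2 were called higher and 5 lower in replicate 2, with a median log2 ratio of -0.53 against 0.24 over all tested genes. Over all tested genes 42% were called higher and 26.9% lower, or 31.8% and 35.6% with TMM scaling. Mir143, of smooth muscle, was at 2947 CPM in replicate 2 and 3099 CPM in replicate 1, a called fold of 0.951, Mir378a, in the PGC-1 beta gene, at 2358 and 3402 CPM, and Mir27b at 819 and 1825 CPM. Mir34a was at 123 CPM in replicate 2 and 435 CPM in replicate 1. The genes called higher were Mir33, in the sterol regulator gene Srebf2, with a fold of 2.23, and Mir122, the main hepatocyte miRNA, with a fold of 4.35. These 2 were named after their values were seen.

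Of the 2202 genes, 1184 had no RefSeq mature sequence matched by symbol, of which 42 were detected. The others fell into 3 classes by the loci of their mature sequences. Of 904 genes with every RefSeq mature arm at 1 locus, the class of Mir107, 344 were detected (38.1%). Of 61 genes with 1 arm at more than 1 locus, the class of both Mir103 genes, 40 were detected (65.6%). Of 53 genes with every arm at more than 1 locus, 7 were detected (13.2%) and 42 had no count in either library. The classes differ in which miRNAs they hold, and no test was made between them.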
